A study of Mus musculus with 4 samples.

Results

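The nuclear-encoded genes of the mitochondrial respiratory chain and ATP synthase were followed across 4 expression arrays of immortalized mouse fibroblasts, cultured connective tissue cells. They were the 85 of 17711 genes on the array whose symbol in the platform annotation began with Nduf, Sdh (Sdha to Sdhd), Uqcr, Atp5 or Cox4 to Cox8. The set held 33 subunits and 8 assembly factors of complex I, 4 subunits of complex II, 7 of complex III, 17 of complex IV and 16 of the ATP synthase. Each gene was represented by its probe with the highest mean signal, and 52 of the 85 genes had a single probe.

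Each of the 4 groups was 1 array. The cells had been given miR-141, miR-200c, a control miRNA or the transfectant only for 48 h. All 4 cultures also received 400 µM hydrogen peroxide during the final 2 h, so the response to peroxide itself was not measured. The transfectant only array is named so by its title and description, while another of its labels gives the transfection as none. The labels do not say how the fibroblasts were immortalized, whether they were 1 clone, or which arm of each miRNA was used. No difference below has a replicate check, and none was tested, because a single array stood for each group.

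The respiratory chain passes electrons from NADH through complex I, and from succinate through complex II, by way of ubiquinone to complex III, cytochrome c and complex IV, where oxygen is reduced to water. Complexes I, III and IV pump protons across the inner mitochondrial membrane, and the ATP synthase, also called complex V, uses the returning protons to make ATP. Complexes I and III are also known sources of superoxide. The miRNAs belong to the miR-200 family, which is abundant in epithelium and known for repressing Zeb1 and Zeb2.

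The mature 3p strands are shown because their seeds, which pair with target transcripts, are 1 base apart. They come from RefSeq on mouse assembly GRCm38.p6, both on the minus strand of chromosome 6, at chr6:124717917-124717938 for miR-141 and chr6:124718324-124718346 for miR-200c. Capitals mark the seed, bases 2 to 8 from the 5′ end.
miR-141-3p: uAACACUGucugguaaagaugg
miR-200c-3p: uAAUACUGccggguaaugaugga
Over the 22 bases compared from the 5′ end, 4 differed. With the miR-141 base first, these were C4U in the seed and U9C, U11G and A17U outside it.

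A probe counted as detected on an array when its detection p-value, which sets it against that array's own background, was under 0.01. Of the 85 genes, 73 were detected on at least 1 array and 69 on all 4. The count per array was 71 with miR-141, 69 with miR-200c, 70 with control miRNA and 73 with transfectant only. Over all genes on the array, 7734 were detected at least once, with 7033 in the miR-141 array, 6989 in the miR-200c array, 7119 in the control miRNA array and 7152 in the transfectant only array. The median raw signal of a probe lay between 42.8 and 49.5 intensity units. The number of arrays limits the precision of every difference.

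The label of the cells was checked against fibroblast markers. Of 15 markers, 7 were detected on at least 1 array, where 7734 of all 17711 genes were. Among the 7, Col1a1, Col5a1, Dcn, Fn1, S100a4 and Vim were detected on all 4, and Pdgfrb on the control arrays only. The probes for Col1a2, Col3a1, Thy1, Pdgfra, Lum, Fap, Postn and Sparc were below detection on all 4. Of 12 epithelial markers, 4 were detected, all 4 on each miRNA array and 1 on each control array, and Cdh1 and Epcam were below detection throughout. The summed raw signal of the 12 was 764 with miR-141 and 1288 with miR-200c, against 533 with control miRNA and 622 with transfectant only. For the 15 fibroblast markers the sum was 18081 with miR-141 and 14556 with miR-200c, against 16417 with control miRNA and 26311 with transfectant only. These sums are of unscaled signal, and the mean raw signal of a probe was 198 with miR-141 and 190 with miR-200c, against 151 with control miRNA and 246 with transfectant only. After normalization, the median difference of the 7 detected fibroblast markers from control miRNA was -0.53 on the log2 scale for miR-141 and -1.06 for miR-200c. At 1.5-fold against both controls, 3 of them (Col5a1, Pdgfrb and S100a4) were lower with miR-141 and 0 higher. With miR-200c 4 (Col1a1, Col5a1, Pdgfrb and S100a4) were lower and 1 (Dcn) higher. Of all genes 5.51% passed in either direction with miR-141 and 8.62% with miR-200c. In such bulk RNA, fewer cells of a type and less RNA per cell cannot be told apart. The part of these markers in the values below was not tested.

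The first comparison asked how the chain's transcripts stood with each miRNA. A gene was counted when it was detected with the miRNA or in both control arrays and differed at least 1.5-fold in the same direction from control miRNA and from transfectant only. With miR-141, 0 of 71 genes of the chain passed, against 5.51% of all genes. With miR-200c, 0 of 70 passed, against 8.62% of all genes. Between the miRNAs themselves, 0 of 71 differed by 1.5-fold, against 8.54% of all genes. A larger part of the chain than of all detected genes had strong signals, and these shares were not matched for brightness. The plot of differences by complex shows how few points leave the 1.5-fold band, and those that do are measured against transfectant only.

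**Figure D1:**
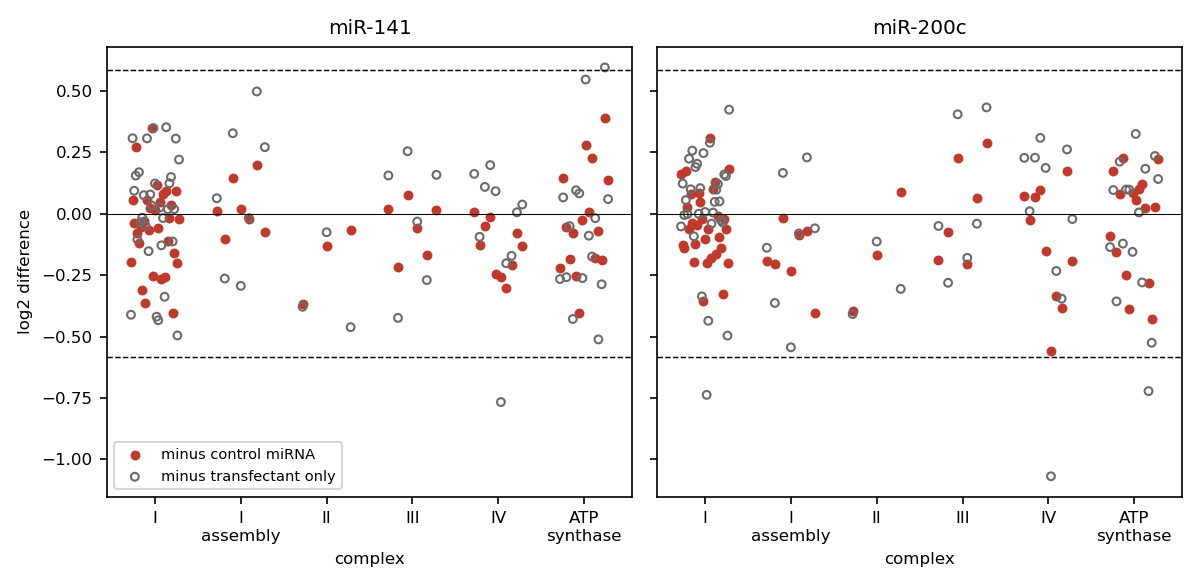
Each point is 1 gene of the chain detected on at least 1 array, placed by complex along the x axis, with its log2 difference on the y axis for miR-141 on the left and miR-200c on the right. Filled points are measured against control miRNA and open points against transfectant only; the dashed lines mark 1.5-fold, which no filled point crosses under the quantile normalization used here, while Cox6c with miR-200c crosses it under median scaling and in the authors' processed values.

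The median difference of the 73 detected genes was small in every pairing. It was -0.058 on the log2 scale for miR-141 minus control miRNA, where all genes had 0.0099, and 0.0055 for miR-141 minus transfectant only, where all genes had 0.022. For miR-200c it was -0.062 against control miRNA, with -0.0049 over all genes, and 0.0048 against transfectant only, with 0.010 over all genes. Relative to control miRNA, 26 of the 73 stood higher and 47 lower in the miR-141 array, and 28 higher and 45 lower in the miR-200c array. Against transfectant only the split was 37 higher and 36 lower with miR-141, and 38 higher and 35 lower with miR-200c. Scaling the arrays by their medians, in place of quantile normalization, gave -0.14 for miR-141 and -0.17 for miR-200c relative to control miRNA. Relative to transfectant only it gave 0.15 for miR-141 and 0.12 for miR-200c. Under that scaling all 1070 genes with a mean log2 signal over 10 also shifted, with medians of -0.041 for miR-141 and -0.11 for miR-200c relative to control miRNA, and 0.17 for miR-141 and 0.11 for miR-200c relative to transfectant only. The shift of the chain was thus about that of all bright genes against transfectant only, and larger than theirs against control miRNA. Only 45 genes of the chain were that bright, so these sets differ in brightness.

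**Figure D2:**
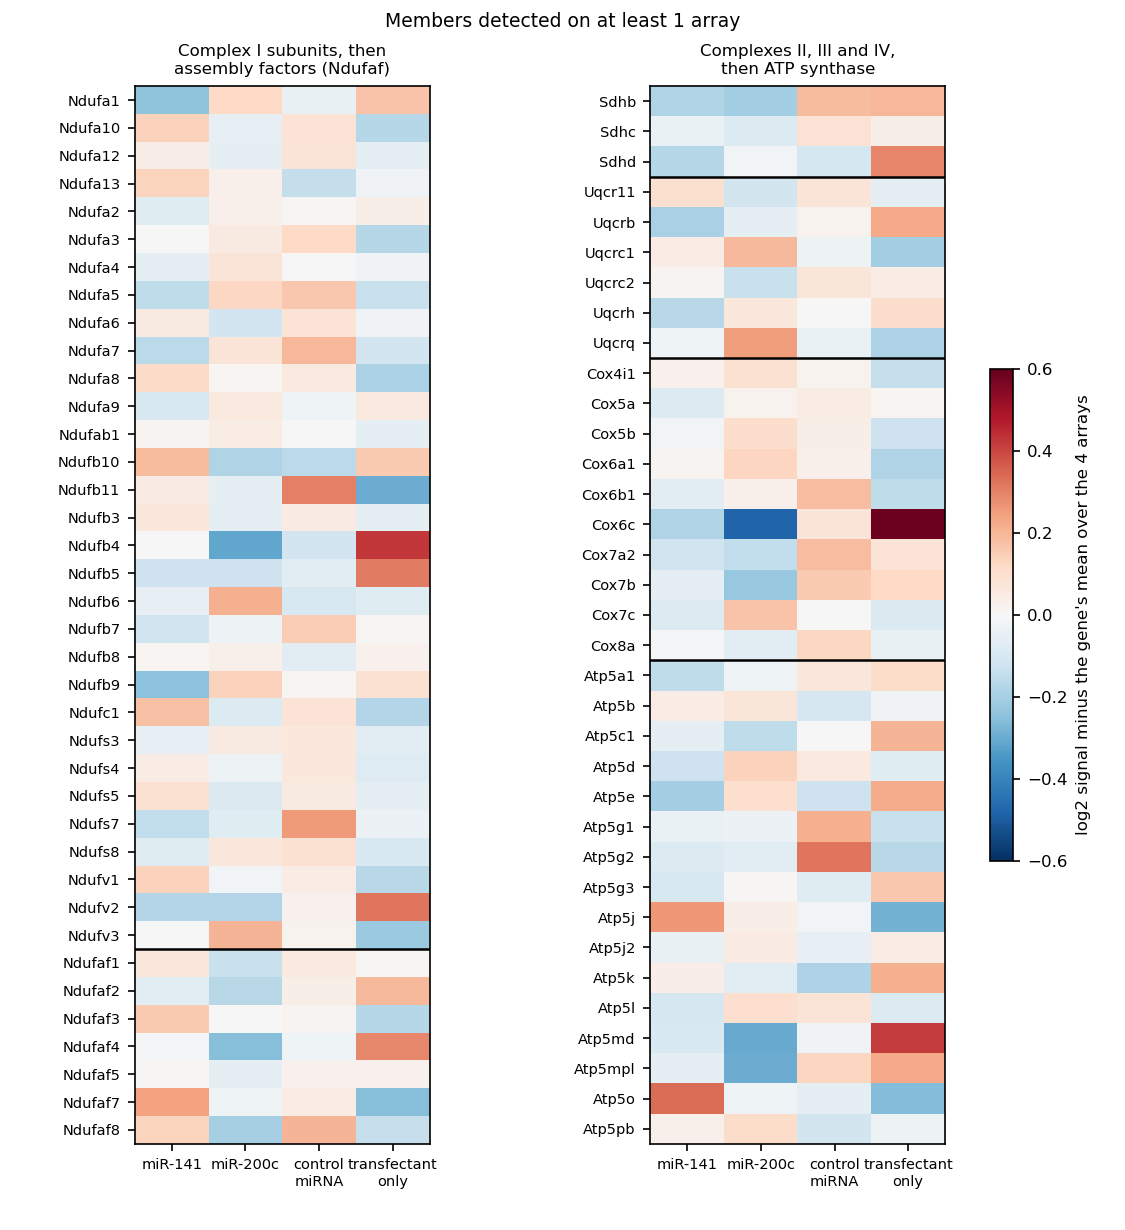
Rows are the 73 genes detected on at least 1 array, grouped by complex and separated by lines, columns are the 4 arrays, and colour is the normalized log2 signal minus that gene's mean over the arrays. Cox6c in the miR-200c and transfectant only arrays carries the deepest colours, and most other rows stay pale.

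After quantile normalization the signals of the chain had narrower ranges over the arrays than all genes did, and this depended on the normalization. Over the 69 genes detected on all 4 arrays, the range from the lowest to the highest array had a median of 0.31 on the log2 scale, against 0.43 over all 6485 such genes. Strong signals are measured with less scatter, so the 45 genes of the chain with a mean log2 signal over 10 were set beside all 1070 genes that bright. Their median ranges were 0.26 and 0.34. A range under 0.5 was found for 63 of the 69 genes (91.3%), against 61.6% of all genes and 76.5% of the bright ones. Among the bright genes of the chain it was 43 of 45 (95.6%). Under median scaling, an alternative chosen after seeing the data, the 69 genes had a median range of 0.40 and 73.9% lay under 0.5, against 0.44 and 59.6% for all genes. The bright genes of the chain then had a median range of 0.40, against 0.41 for all bright genes. In the authors' processed values the 69 genes had 0.37, against 0.38 for all genes, and the bright ones 0.39, against 0.41 for all bright genes. The 10 subunits of complex IV had a median range of 0.28 after quantile normalization and 0.51 under either of the others.

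**Figure D3:**
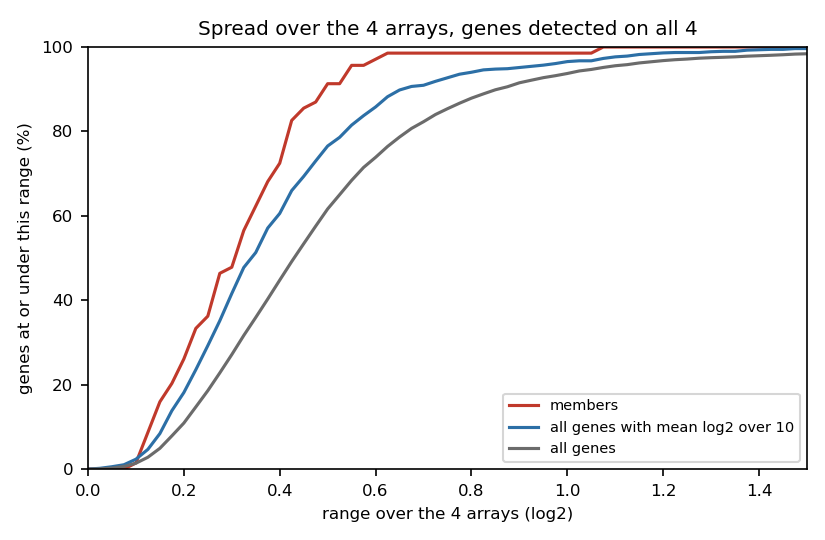
The x axis is the range of a gene over the 4 arrays on the log2 scale and the y axis the percentage of genes at or under that range, after quantile normalization, for genes of the chain, for all genes with a mean log2 signal over 10 and for all genes, each detected on all 4 arrays. The curve of the chain lies left of the others over most of its length, with medians of 0.31, 0.34 and 0.43.

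Complex I takes electrons from NADH. Of its 33 subunits, 31 were detected at least once and 29 on all 4 arrays. Ndufb2, an accessory subunit, and Ndufs1, which carries several of the iron-sulfur clusters, were below detection on all 4. Relative to control miRNA the median difference of the 31 was -0.040 for miR-141 and -0.061 for miR-200c. Relative to transfectant only it was 0.025 for miR-141 and 0.050 for miR-200c. No subunit of the flavin and iron-sulfur core was 1.5-fold apart in any pairing.

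Among the core subunits, Ndufv2, an iron-sulfur protein beside the flavin site, had a log2 signal of 9.08 with miR-141 and 9.08 with miR-200c, against 9.28 with control miRNA and 9.57 with transfectant only. Both miRNA arrays were below both control arrays, and the control arrays differed from each other by -0.30. Ndufs7, whose cluster hands electrons to ubiquinone, had 9.66 with miR-141 and 9.73 with miR-200c, against 10.06 with control miRNA and 9.77 with transfectant only. Here the control miRNA array stood away from the other arrays. Ndufv1, the subunit that binds the flavin, had 11.81 with miR-141 and 11.66 with miR-200c, against 11.72 with control miRNA and 11.51 with transfectant only, so the groups overlapped.

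Of the accessory subunits, Ndufb6 had the largest difference with miR-200c that held against both controls, at 12.10 with miR-200c against 11.79 with control miRNA and 11.81 with transfectant only. Its value with miR-141 was 11.84, close to the controls. Ndufb9 was the reverse case, with 6.65 in the miR-141 array, against 6.91 with control miRNA and 6.98 with transfectant only, and 7.03 with miR-200c. Ndufa13, also known as GRIM-19, had 12.69 with miR-141 and 12.59 with miR-200c, against 12.42 with control miRNA and 12.54 with transfectant only, but its difference of miR-200c from control miRNA turned from 0.17 to -0.047 under median scaling. All these differences were under 1.5-fold. Ndufa4, first described in complex I and now assigned to complex IV, had 13.00 with miR-141 and 13.13 with miR-200c, against 13.05 with control miRNA and 13.03 with transfectant only. Ndufb8 spanned 0.10 over the 4 arrays and Ndufab1, the mitochondrial acyl carrier protein, also 0.10. Ndufb4 was detected with transfectant only and on no other array, with a signal at least 1.25-fold that of the miR-200c array, and Ndufb10 was detected with miR-141 and with transfectant only.

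The 8 genes named Ndufaf are assembly factors of complex I, which help build it and are absent from the finished enzyme. Of the 8, 7 were detected on all 4 arrays and Ndufaf6 on none. All 7 were lower with miR-200c than with control miRNA, with a median of -0.19. So 0 of 7 were higher, where 49.4% of all detected genes were. In all 7 the miR-200c array also lay under the miR-141 array, by 0.062 to 0.33 with a median of 0.20. Against transfectant only, 5 of the 7 were lower with miR-200c and the median was -0.081. With miR-141, 4 of the 7 were higher than with control miRNA and the median was 0.010. These counts for miR-200c against control miRNA and against miR-141 were the same under median scaling and in the authors' processed values. They rest on the brighter probe of Ndufaf3, which gave -0.018 for miR-200c minus control miRNA and 0.16 for miR-141 minus miR-200c. Its other probe, also detected on all 4 arrays, had the opposite signs, at 0.12 and -0.13. Among assembly factors of complex I outside the symbol rule, miR-200c minus control miRNA was -0.16 for Ecsit and -0.20 for Foxred1, but 0.11 for Acad9. For miR-141 minus miR-200c, these 3 genes had 0.011 to 0.098. Tmem126b was detected with transfectant only and on no other array, so it has no measured difference in either pairing.

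Ndufaf4 had 9.18 with miR-141 and 8.93 with miR-200c, against 9.16 with control miRNA and 9.47 with transfectant only. Ndufaf2, a chaperone also called mimitin, had 9.77 with miR-141 and 9.67 with miR-200c, against 9.87 with control miRNA and 10.03 with transfectant only. In both, the miR-200c array was the lowest of the 4. Ndufaf8 had 7.42 with miR-141 and 7.09 with miR-200c, against 7.49 with control miRNA and 7.15 with transfectant only, so the miR-200c and transfectant only arrays lay together below the other pair. Ndufaf7, a methyltransferase, had 6.55 with miR-141 and 6.29 with miR-200c, against 6.36 with control miRNA and 6.06 with transfectant only. Ndufaf3 had 9.40 with miR-141 and 9.24 with miR-200c, against 9.26 with control miRNA and 9.08 with transfectant only. In those 2 genes the transfectant only array was the lowest.

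Complex II oxidizes succinate and is also an enzyme of the tricarboxylic acid cycle. Its iron-sulfur subunit Sdhb had a log2 signal of 9.92 with miR-141 and 9.89 with miR-200c, against 10.28 with control miRNA and 10.30 with transfectant only. The control arrays differed from each other by -0.011, the miRNA arrays from each other by 0.030, and the pairs were 1.29-fold to 1.33-fold apart. Sdhb was the only gene of the chain at least 1.2-fold lower with both miRNAs against both controls. Of the membrane anchors, Sdhc had 11.18 with miR-141 and 11.14 with miR-200c, against 11.31 with control miRNA and 11.26 with transfectant only. Sdhd had 7.12 with miR-141 and 7.28 with miR-200c, against 7.19 with control miRNA and 7.59 with transfectant only, so its groups overlapped. The flavoprotein subunit Sdha was below detection on all 4 arrays by its only probe, and a second Sdhb probe was below detection as well.

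Complex III passes electrons from ubiquinol to cytochrome c. Uqcrq, a small membrane subunit, had 8.27 with miR-141 and 8.55 with miR-200c, against 8.26 with control miRNA and 8.11 with transfectant only. The miR-200c array was the highest, 0.29 above control miRNA and 0.43 above transfectant only. The core protein Uqcrc1 had 10.97 with miR-141 and 11.12 with miR-200c, against 10.89 with control miRNA and 10.72 with transfectant only, whereas the other core protein, Uqcrc2, had 11.46 with miR-141 and 11.31 with miR-200c, against 11.52 with control miRNA and 11.49 with transfectant only. The core proteins thus lay on opposite sides of the controls with miR-200c, by less than 1.5-fold in each case. Uqcrb, which lies at the ubiquinone site, had 8.22 with miR-141 and 8.36 with miR-200c, against 8.44 with control miRNA and 8.64 with transfectant only. Uqcrh and Uqcr11, both small subunits, spanned 0.27 and 0.21 over the 4 arrays. Uqcrfs1, the Rieske iron-sulfur protein, was below detection on all 4 by both of its probes.

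Complex IV, cytochrome c oxidase, reduces oxygen. Cox6c, one of its nuclear-encoded structural subunits, had the widest range of the chain, with 11.19 with miR-141 and 10.89 with miR-200c, against 11.45 with control miRNA and 11.96 with transfectant only. In unscaled raw intensity these were 2375 with miR-141 and 1880 with miR-200c, against 1979 with control miRNA and 5193 with transfectant only. The miR-200c array was 2.10-fold lower than transfectant only and 1.47-fold lower than control miRNA, just short of the size counted. The miR-141 array was 1.70-fold lower than transfectant only and 1.19-fold lower than control miRNA. The control arrays themselves differed by -0.51 on the log2 scale, about as much as miR-200c and control miRNA did. Under median scaling and in the authors' processed values the difference of miR-200c from control miRNA was -0.67 and -0.70, so Cox6c was then counted as lower with miR-200c.

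Cox7b had 5.90 with miR-141 and 5.73 with miR-200c, against 6.11 with control miRNA and 6.08 with transfectant only. Cox7a2 had 7.80 with miR-141 and 7.77 with miR-200c, against 8.10 with control miRNA and 8.003 with transfectant only. In both subunits the miRNA arrays lay below the control arrays, and Cox7b was close to the lowest detected signal of 5.29 to 5.37. Cox4i1, which regulates the enzyme by binding ATP, had 13.43 with miR-141 and 13.49 with miR-200c, against 13.42 with control miRNA and 13.27 with transfectant only. Cox7c had 13.27 with miR-141 and 13.52 with miR-200c, against 13.35 with control miRNA and 13.26 with transfectant only. Its difference of miR-200c from control miRNA was 0.18 here and -0.13 under median scaling. The remaining subunits, Cox5a, Cox5b, Cox6a1, Cox6b1 and Cox8a, spanned 0.13 to 0.34. Of the 10 detected subunits, 9 were lower with miR-141 than with control miRNA and 6 with miR-200c, with medians of -0.13 and -0.088. Of all detected genes, 51.2% were higher with miR-141 than with control miRNA and 49.4% with miR-200c. Against transfectant only, 6 of the 10 were higher with each miRNA, with medians of 0.021 for miR-141 and 0.098 for miR-200c. There 52.2% of all detected genes were higher with miR-141 and 51.3% with miR-200c. For miR-141 minus control miRNA, 3 of the 9 lower subunits had another probe, detected on all 4 arrays, with the opposite sign, at 0.048 for Cox5b, 0.022 for Cox6a1 and 0.049 for Cox6b1. Under median scaling all 10 were lower with either miRNA than with control miRNA.

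**Figure D4:**
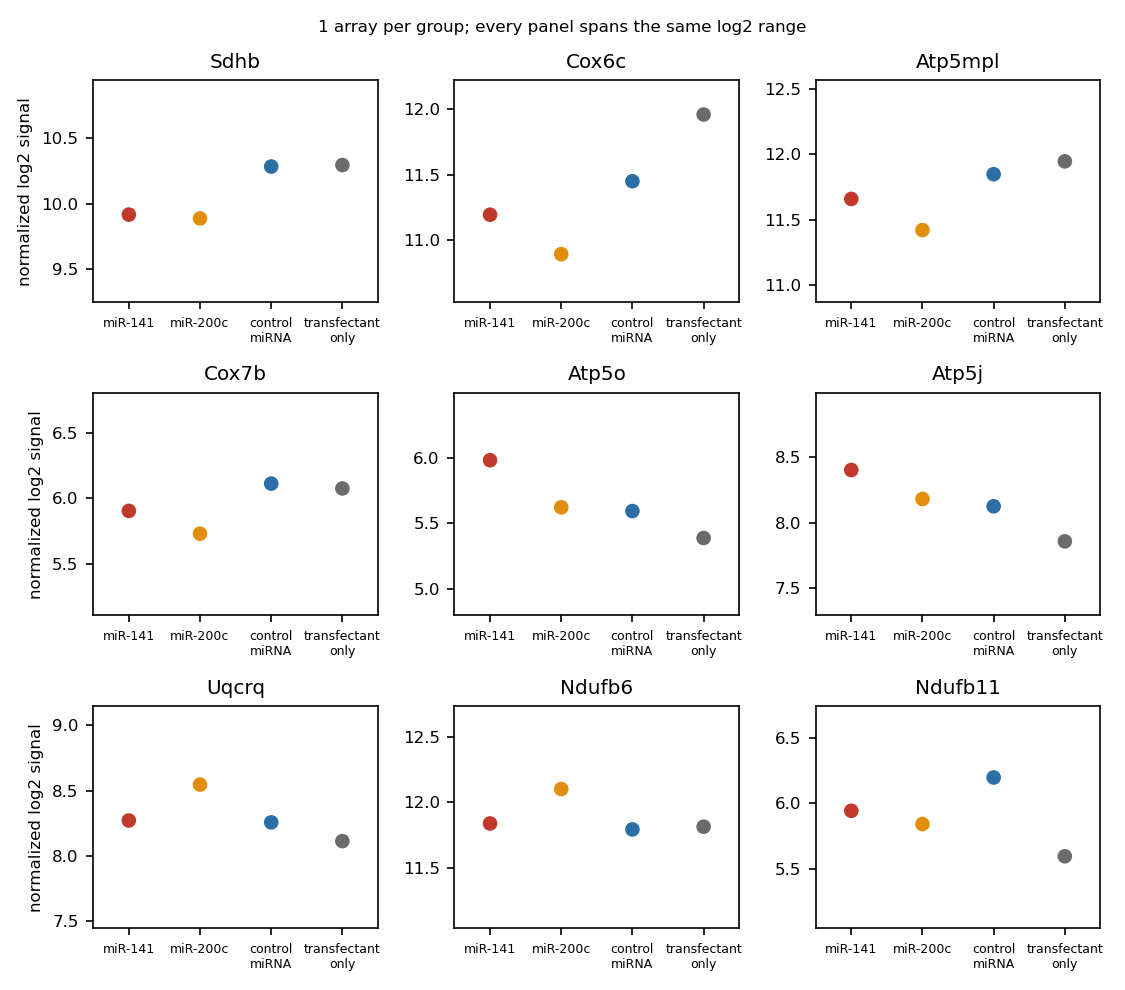
Each panel gives the normalized log2 signal of 1 gene on the y axis in the 4 arrays on the x axis, and every panel spans the same log2 range around its own gene. Sdhb, Cox6c, Atp5mpl and Cox7b lay lower in both miRNA arrays than in both control arrays, Atp5o and Atp5j higher with miR-141, Uqcrq and Ndufb6 higher with miR-200c, and Ndufb11 was apart in the controls.

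Several complex IV subunits exist as a common form and a form made in particular tissues, and the detection of these forms was compared. All 6 common forms with such a partner (Cox4i1, Cox6a1, Cox6b1, Cox7a2, Cox7b and Cox8a) were detected on all 4 arrays, and the 7 restricted forms were detected on none. Cox6a2, Cox7a1 and Cox8b are the forms of heart and skeletal muscle. Cox6b2, Cox7b2 and Cox8c are known from testis. Cox4i2, known from lung and from low oxygen, came nearest, with detection p-values of 0.020 with miR-141, 0.033 with miR-200c, 0.041 with control miRNA and 0.036 with transfectant only, and would count as detected at a limit of 0.05. The marker lists of muscle, brown fat and germ cells were mostly below detection too. On at least 1 array 3 of 13 muscle markers, 1 of 6 brown fat markers and 1 of 9 germ cell markers were detected. Of all 17711 genes 7734 were. Acta1, Actc1 and Tnnt2 were the muscle markers detected. The probes for Sdha, Ndufs1 and Uqcrfs1, and for the fibroblast marker Col1a2, were below detection on all 4 arrays as well. A probe below detection thus says little about the cell type.

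**Figure D5:**
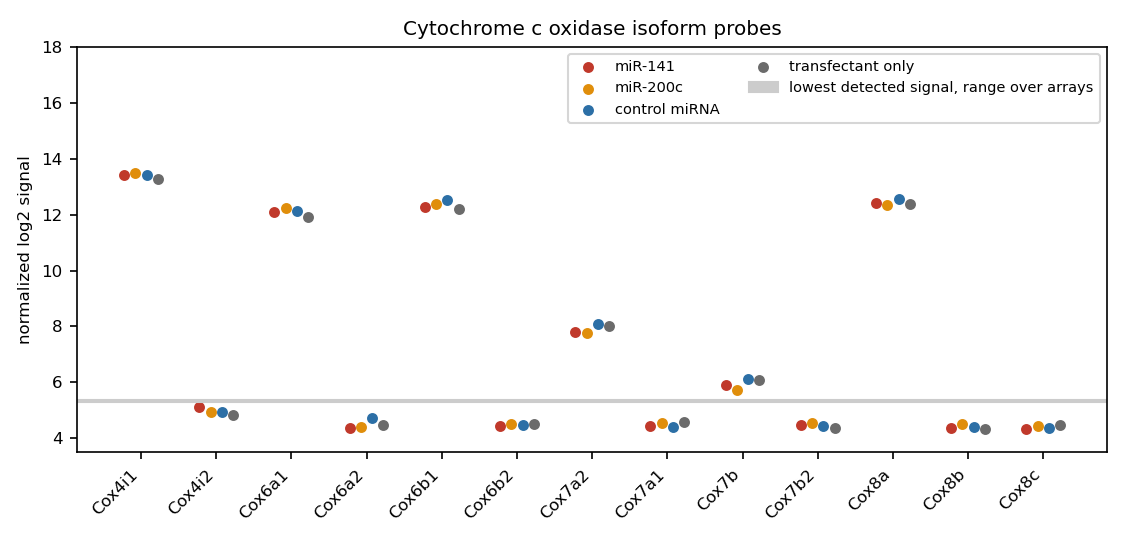
The y axis is the normalized log2 signal and the x axis lists cytochrome c oxidase genes, each common form followed by its restricted forms, with 1 point per array. The grey band is the lowest detected signal of the arrays, 5.29 to 5.37; each common form lies above it and each restricted form below it, and heights of different probes are not comparable.

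The ATP synthase turns proton flow into ATP through a ring of c subunits, a central stalk, a peripheral stalk and a catalytic head. Of its 16 subunits all were detected at least once and 14 on all 4 arrays. Atp5o, the peripheral stalk subunit that confers oligomycin sensitivity, had 5.98 with miR-141 and 5.62 with miR-200c, against 5.59 with control miRNA and 5.39 with transfectant only. Atp5j, coupling factor 6 of the same stalk, had 8.40 with miR-141 and 8.18 with miR-200c, against 8.12 with control miRNA and 7.86 with transfectant only. Both were highest with miR-141 and lowest with transfectant only, and the smaller of the differences of miR-141 from the controls was 0.39 for Atp5o and 0.28 for Atp5j. Atp5o was close to the lowest detected signal of 5.29 to 5.37. Without background correction the difference of Atp5o from control miRNA was 0.21. Atp5pb, subunit b of that stalk, had 10.72 with miR-141 and 10.80 with miR-200c, against 10.58 with control miRNA and 10.66 with transfectant only. Its difference of miR-141 from control miRNA was 0.14 by this probe. By another probe of Atp5pb, also detected on all 4 arrays, it was -0.43, the widest gap of the chain in that pairing.

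Atp5mpl, a small proteolipid attached to the enzyme, had 11.66 with miR-141 and 11.42 with miR-200c, against 11.85 with control miRNA and 11.95 with transfectant only. Atp5md, also called DAPIT and tied to dimers of the enzyme, had 5.56 with miR-141, 5.63 with control miRNA and 6.08 with transfectant only, and was below detection with miR-200c, at least 1.63-fold lower than with transfectant only. Both were lowest with miR-200c and highest with transfectant only. In the catalytic head, the beta subunit Atp5b had 13.68 with miR-141 and 13.71 with miR-200c, against 13.54 with control miRNA and 13.62 with transfectant only. The alpha subunit Atp5a1 had 7.29 with miR-141 and 7.42 with miR-200c, against 7.51 with control miRNA and 7.55 with transfectant only. These partners in the head lay on opposite sides of the controls, in each case by 0.27 or less, but under median scaling Atp5b turned to -0.14 with miR-141 and -0.20 with miR-200c against control miRNA.

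The c subunit of the rotor is made from 3 genes that encode the same mature protein. Atp5g1 had 11.56 with miR-141 and 11.57 with miR-200c, against 11.82 with control miRNA and 11.47 with transfectant only. Atp5g2 had 10.18 with miR-141 and 10.20 with miR-200c, against 10.59 with control miRNA and 10.10 with transfectant only. In both, the control miRNA array was the single high value. Atp5g3 had 13.56 with miR-141 and 13.66 with miR-200c, against 13.58 with control miRNA and 13.82 with transfectant only, where the transfectant only array was the high one, although the difference between the controls turned from -0.24 to 0.49 under median scaling. The median of the 16 subunits for miR-200c minus control miRNA was 0.042 here and turned to -0.17 under median scaling and -0.19 in the authors' processed values.

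The control arrays were compared with each other to see how far arrays without either miRNA lie apart. Of 73 genes of the chain, 1 differed by 1.5-fold, against 7.67% of all genes. It was Ndufb11, an X-linked accessory subunit of complex I, with 5.94 with miR-141, 5.84 with miR-200c, 6.20 with control miRNA and 5.60 with transfectant only. The control arrays were its highest and lowest, 1.52-fold apart, and the miRNA arrays lay between them. In the authors' processed values the difference was 0.37, under the size counted. The value of Ndufb11 with transfectant only was close to the lowest detected signal of 5.29 to 5.37. The median of the 73 genes for control miRNA minus transfectant only was 0.086, against 0.0043 over all genes, and 45 of the 73 were higher. In complex IV 9 of 10 subunits were higher with control miRNA, with a median of 0.13, where 50.6% of all detected genes were higher. Under median scaling the median was 0.50, when that of all 1070 bright genes was 0.21, with 822 of them higher. In the ATP synthase 10 of 16 were lower, with a median of -0.078, which turned to 0.28 under median scaling and 0.20 in the authors' processed values.

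A smaller size, 1.2-fold, was used to see which genes lay next in line. With miR-141, 3 of 71 genes passed against both controls, where 22.4% of all genes did. They were Atp5j and Atp5o, which were higher, and Sdhb, which was lower. With miR-200c, 7 of 70 passed, where 27.5% of all genes did. Ndufb6 and Uqcrq were higher, and Atp5md, Atp5mpl, Cox6c, Cox7b and Sdhb were lower, with Atp5md below detection there and its bound against control miRNA only just past that size. Between the control arrays 21 of 73 passed at that size, where 41.2% of all genes did. Of these, 11 were higher with control miRNA, where 20.3% of all genes were, and 10 lower, where 20.8% were. The 10 include Atp5e and Ndufb10 by their measured values only, since both were below detection with control miRNA and their bounds, at least 1.03-fold and at least 1.13-fold lower, do not reach that size. Each of these counts was a smaller share of the chain than of all genes. However, 45 of the 73 detected genes of the chain had a mean log2 signal over 10, against 1070 of all 7734 detected genes. Strong signals scatter less, and no share of bright genes alone was taken for these counts. The part of brightness in the smaller shares was not tested. Measured at 1.5-fold from a single control array, 0 genes passed with either miRNA against control miRNA alone, where 9.13% of all genes did for miR-141 and 13.7% for miR-200c. Against transfectant only alone, 2 passed with miR-141 (Atp5o higher and Cox6c lower), where 13.7% of all genes did, and 3 with miR-200c (Atp5md, Cox6c and Ndufb4, all lower), where 16.5% did. Ndufb4 counts there by its measured value only, since it was below detection with miR-200c and its bound, at least 1.25-fold lower, does not reach 1.5-fold.

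Genes were also counted by order alone. Of the 69 genes detected on all 4 arrays, 10 had both miRNA arrays above both control arrays (14.5%), where 23.5% of all genes did. These were Atp5b, Atp5j, Atp5o, Atp5pb, Cox4i1, Ndufa13, Ndufab1, Ndufb6, Uqcrc1 and Uqcrq. The order is that of the brightest probe. Another probe of Atp5pb and another of Ndufab1, each detected on all 4 arrays, did not share it. A further 16 had both miRNA arrays below both control arrays (23.2%), where 20.9% of all genes did. That set spread over all 5 complexes, with Sdhb and Sdhc of complex II, Uqcrb and Uqcrc2 of complex III, Cox6c, Cox7a2 and Cox7b of complex IV, Atp5a1, Atp5c1 and Atp5mpl of the ATP synthase, and for complex I the subunits Ndufb5, Ndufb7, Ndufs7 and Ndufv2 and the factors Ndufaf2 and Ndufaf5. Both shares were near or below those of all genes. The order rests on quantile normalization, and for bright probes such as that of Atp5b it turned under median scaling.

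Between the miRNAs, 10 of 71 genes differed at least 1.2-fold, where 35.1% of all genes did. Cox6c, Atp5o, Ndufaf7, Ndufaf8 and Ndufb10 had the higher signal with miR-141, and the miR-200c signal was higher for Ndufa1, Ndufa5, Ndufb6, Ndufb9 and Uqcrq. Ndufb10 counts by its measured value only, since it was below detection with miR-200c and its bound is at least 1.12-fold. Ndufa1, an X-linked accessory subunit, had 11.78 with miR-141 and 12.14 with miR-200c, beside 11.98 with control miRNA and 12.20 with transfectant only. Over the 73 genes, the median of miR-141 minus miR-200c was -0.0030, against 0.013 over all genes.

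For some genes another probe on the same arrays gave a further reading. Among 14 genes with several probes detected on all 4 arrays, the probes had the same sign for miR-141 minus control miRNA in 6, for miR-200c minus control miRNA in 9 and for control miRNA minus transfectant only in 9. The widest gap was in Ndufa5, whose probes gave 0.29 and -0.81 for control miRNA minus transfectant only. The median gap between probes of a gene was 0.20 for miR-141 minus control miRNA and 0.15 for miR-200c minus control miRNA. The median size of the difference itself, over the 69 genes detected on all 4 arrays, was 0.11 for miR-141 and 0.13 for miR-200c, so it did not exceed the gap between probes. Cox6c, Atp5o and Ndufb11 each had 1 probe, so this check was not open to them.

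Related genes outside the symbol rule were read from lists. With both miRNAs, 0 genes passed 1.5-fold among 10 detected electron carriers and ubiquinone enzymes, 8 detected partners of the ATP synthase, 28 detected assembly factors of complexes I to IV, 15 detected enzymes of the tricarboxylic acid cycle, 12 detected glycolytic enzymes and 8 detected hypoxia-regulated genes. Detected here means on at least 1 array. Of all genes considered, 5.51% passed with miR-141 and 8.62% with miR-200c. At those shares lists this short, and the next one, would hold few such genes or none. Of 13 detected regulators of mitochondrial biogenesis, 0 passed with miR-141 and 1 with miR-200c. This was Ppargc1a, a coactivator of respiratory genes, which had 5.78 with miR-200c and was below detection elsewhere, at 4.83 with miR-141, 5.15 with control miRNA and 4.92 with transfectant only. It counts by its measured values only, since its bounds with miR-200c, at least 1.36-fold higher than with control miRNA and at least 1.40-fold higher than with transfectant only, do not reach 1.5-fold. The subunits encoded by mitochondrial DNA were not analysed here.

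Promoters of the chain were read because letters known to be bound by regulators of these genes are common in them. RefSeq windows on GRCm38.p6, from 250 bases before to 50 bases after a start, were matched for 70 of the 85 genes. Both strands were searched for GCGCANGCG (NRF1), CCGGAAG (the ETS family, which includes GABPA) and AANATGGCG (YY1), whose ends can overlap one another. At least 1 of the 3 stood in 57.1% of the 70 genes, against 22.7% of 17492 protein-coding genes with a window. NRF1 letters were in 19 genes (27.1%, against 9.63%), ETS letters in 18 (25.7%, against 12.9%) and YY1 letters in 10 (14.3%, against 3.64%). A match describes the letters only.

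The promoters below show 1 example of each motif, without the 50 bases after the start. They belong to an assembly factor, to a gene highest with miR-141 and to the gene 1.5-fold apart between the controls. Ndufaf4 is at chr4:24897833-24898082 on the plus strand, Atp5j at chr16:84834977-84835226 on the minus strand and Ndufb11 at chrX:20617620-20617869 on the minus strand. Capitals mark the matched letters.
Ndufaf4: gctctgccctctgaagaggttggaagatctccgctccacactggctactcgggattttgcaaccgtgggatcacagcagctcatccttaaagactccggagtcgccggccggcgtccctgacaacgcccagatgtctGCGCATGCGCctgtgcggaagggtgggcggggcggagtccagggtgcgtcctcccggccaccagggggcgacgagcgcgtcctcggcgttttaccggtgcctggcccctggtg
Atp5j: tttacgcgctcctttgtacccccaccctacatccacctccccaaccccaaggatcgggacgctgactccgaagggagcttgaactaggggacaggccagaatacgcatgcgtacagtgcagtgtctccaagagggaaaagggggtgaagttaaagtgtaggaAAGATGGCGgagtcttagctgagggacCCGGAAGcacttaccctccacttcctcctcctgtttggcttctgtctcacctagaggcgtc
Ndufb11: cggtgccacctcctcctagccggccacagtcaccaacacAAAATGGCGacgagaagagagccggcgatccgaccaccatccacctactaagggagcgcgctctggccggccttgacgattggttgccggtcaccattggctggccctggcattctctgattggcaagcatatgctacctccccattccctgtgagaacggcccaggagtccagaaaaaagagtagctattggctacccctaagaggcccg
In Ndufaf4 the NRF1 letters match on both strands, in overlapping stretches that end 104 and 103 bases before the start. In Atp5j the YY1 letters end 79 bases before the start and the ETS letters 54 bases before it, and in Ndufb11 the YY1 letters end 202 bases before it.

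The values of genes with and without these letters were set side by side. Over genes detected on all 4 arrays, the median of miR-141 minus control miRNA was -0.031 in 35 genes with any of the 3 motifs and -0.053 in 24 genes without. For miR-200c minus control miRNA it was -0.085 with and -0.042 without. For control miRNA minus transfectant only the 10 genes with YY1 letters had a median of 0.26 and the 49 without had 0.11, the widest gap among the motifs in these pairings, and the ranges of those genes overlapped, from -0.096 to 0.60 with and from -0.40 to 0.49 without.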

How the data were processed

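Signal intensities were deposited per probe and array without normalization, per the file headers, and the deposited detection p-value set each probe against its array's background. GenomeStudio is named in the submitters' processing notes, with no version in the sources used here. The authors' processed intensity values, of unstated method, were each array's raw signals on a straight line, to within 0.0113 units, with slopes of 1.00 (miR-141), 0.971 (miR-200c), 1.51 (control miRNA) and 0.692 (transfectant only), intercepts of -0.90, 3.94, -19.9 and 12.1 and medians of 45.0, 45.8, 44.7 and 46.3. So they were linear and not centred by gene, and how the lines were set is unknown. Value columns of no sample numbered 0.

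The neqc function of limma 3.58.1 in R 4.3.3 took the raw signals of all 4 arrays through normexp background correction (background read from the detection p-values), an offset of 16, quantile normalization and log2. Summaries and plots used matplotlib 3.10.9, pandas 2.3.3, numpy 2.4.6 and Python 3.11.15. The calculation was tested on simulated data. Quantile normalization removes a shift shared by most genes. Genes were named from the platform annotation, in which 29976 of 46632 probes had 1 symbol, 10 several and 16646 none. All 85 genes were found in RefSeq by Entrez identifier.

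Each group being 1 array, groups were not tested and genes were counted by a fold of 1.5. A probe below detection on an array has only a bound there, the brighter value against the higher of its own value and the array's lowest detected signal. The genes, lists and comparisons were chosen with earlier results of these data known. Named were genes past 1.5-fold, the 5 with the largest difference each way per miRNA, the 3 brightest per complex, those below detection and isoform partners, and others chosen after their values were seen.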

Additional observations from a re-analysis of the deposited data

How the results depend on the processing

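No paired analysis was possible because each group held 1 array. The counts at 1.5-fold and the median differences against control miRNA and between the controls were recomputed without background correction, with median scaling, from the authors' processed values, with an offset of 50, with other detection filters and with the mean over a gene's probes. For control miRNA minus transfectant only, the count of 1 became 0 without background correction and 0 with an offset of 50, 5 under median scaling and 4 in the authors' processed values. For miR-200c, the count of 0 became 1 (Cox6c) under median scaling and 1 in the authors' processed values. The shares of all genes given above, 7.67% between the controls and 8.62% for miR-200c, hold for quantile normalization. The shares under the alternatives are not given here, so these recomputed counts do not show whether the chain then differed from all genes. At 1.2-fold the counts were 3 for miR-141, 7 for miR-200c, 10 between the miRNAs and 21 between the controls. Against transfectant only alone, an alternative chosen after seeing the data, they were 2 for miR-141 (Atp5o and Cox6c) and 3 for miR-200c (Atp5md, Cox6c and, by its measured value only, Ndufb4), where 13.7% and 16.5% of all genes passed; against control miRNA alone, also chosen then, both were 0. The median for miR-200c minus control miRNA was -0.17 under median scaling and -0.19 in the authors' processed values, and that for control miRNA minus transfectant only was 0.27 and 0.24. The cause of these shifts was not tested. Of 792 single-gene values under these alternatives, 678 moved by less than 0.1 on the log2 scale and 114 by more. Of the 59 single-gene values over 0.1 in size, 9 turned sign under median scaling and 9 in the authors' processed values, all of bright probes (Atp5b, Atp5g3, Atp5j2, Cox7c, Ndufa13, Ndufb8 and Uqcrh), and 0 under the other alternatives.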
